A study of Homo sapiens with 6 samples.

Results

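The genes described here lie on the distal end of the long arm of chromosome 14, from VIPAS39 at position 77426675 (GRCh38) to the end of the chromosome. The members are the protein-coding GENCODE 29 genes that start at or beyond that position and had an FPKM (fragments per kilobase of transcript, scaled to library size) of at least 1 in at least 2 of 6 libraries. The rule left out 6 named genes, of which 5 had passed the expression filter. It gave 107 members out of 12152 protein-coding genes that passed the same filter anywhere in the genome. The segment was chosen by measured values of these same libraries, namely the difference between the clone G3C2 and wild-type cells. That difference is therefore described below without a test and supports nothing.

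U2OS is a human osteosarcoma cell line known for a heavily rearranged karyotype. Poly(A) RNA was sequenced from log-phase cultures at 65 to 75% confluency, with 3 libraries of wild-type (WT) U2OS and 3 of G3C2, a U2OS line edited with CRISPR/Cas9 at ZFP36L1 and labelled as deficient in that gene. Replicates of either genotype carry the labels 1, b and c. The clone G3C2 is the 1 deficient line in the series, so genotype and clone cannot be told apart. Per the labels' protocols, sequencing and western blotting were used to check the deficiency. No group carried a transgene or received a drug.

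Neighbouring genes on a chromosome need not work together, and the distal end of chromosome 14 holds genes of many kinds. Among them is HSP90AA1, the stress-inducible cytosolic HSP90 chaperone. Others serve RNA 3′-end formation (PAPOLA, CPSF2), microRNA maturation (DICER1) and movement along microtubules (DYNC1H1). Many of their proteins act in complexes whose other subunits are encoded outside the segment. ZFP36L1, the edited gene, lies on the same chromosome arm and encodes a protein that binds AU-rich elements in mRNAs and promotes their decay.

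Label 1 was deposited in its own table (the first table below) and labels b and c share another (the second). Their scales differ, with FPKM totals of at least 705014 for label 1 and at most 319282 for the rest, so genotypes were compared within a label. Within label c the totals differed as well, at 235190 in WT and 319282 in the clone. They were closer in label 1 (705014 and 712633) and in b (264495 and 258735). The main differences below were not rescaled for this, so those of label c include it. Reads recovered from the second table numbered 22610000 to 28980000 per library, of which 95733 to 237843 fell on the members. The depth of the first table was not recovered. The osteosarcoma label was set beside markers. COL1A1, RUNX2, SPP1 and VIM were above an FPKM of 1 in every library, while ALPL, BGLAP, SP7 and COL1A2 were below 1 in every library, CD3E was listed at 0, and the epithelial gene EPCAM was between 3.05 and 18.7. ZFP36L1 had an FPKM of 165.2, 57.1 and 127.5 in WT and 238.1, 105.1 and 82.4 in the clone (replicates 1, b and c; log2 difference 0.26, SE 0.33, n = 3 per genotype, limma adjusted p = 0.752), so its transcript level does not separate the labels. In bulk RNA, fewer cells that hold a transcript and less RNA per cell cannot be told apart.

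The first members of the segment are VIPAS39 and AHSA1, which point away from each other and overlap by 83 bases at their start sites. VIPAS39 (ENSG00000151445, chr14:77426675-77457952, minus strand) encodes a partner of VPS33B in membrane sorting. AHSA1 (ENSG00000100591, chr14:77457870-77469474, plus strand) encodes the co-chaperone that activates the ATPase of HSP90. The stretch upstream of AHSA1, which lies inside the annotated extent of VIPAS39, is shown because the first gene pair of the segment begins there. The 226 printed bases hold 12 CpG dinucleotides and no GGGCGG on either strand, whereas the RefSeq window of VIPAS39 (chr14:77457602-77457851) holds 1 match that is not within them. The stretch was taken from RefSeq (chr14:77457641-77457866, GRCh38.p14, plus strand, 5′ to 3′), with nothing set in capitals because the SP, CCAAT, TATA and heat shock element cores were not found in the printed bases.
AHSA1 upstream: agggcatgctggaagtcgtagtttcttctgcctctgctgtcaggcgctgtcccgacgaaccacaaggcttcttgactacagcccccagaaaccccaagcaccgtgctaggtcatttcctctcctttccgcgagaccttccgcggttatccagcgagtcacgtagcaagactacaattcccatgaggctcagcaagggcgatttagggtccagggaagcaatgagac

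Values differed from one side of VIPAS39 to the other within a short distance. Log2 differences are given throughout as log2(FPKM + 1) in the clone minus WT, which understates the change of genes with low values, and means over the 3 replicate labels carry the standard error (SE) of the limma fit. VIPAS39 had an FPKM of 12.5, 4.52 and 4.73 in WT replicates 1, b and c and of 19.6, 7.67 and 7.19 in the clone. The clone was higher in every pair, without overlap within a table, and the mean difference was 0.59 (SE 0.13, n = 3 per genotype). AHSA1 stood at 211.2, 49.3 and 37.1 in WT and at 259.0, 65.1 and 101.6 in the clone, a mean difference of 0.71 (SE 0.26). Its difference in replicate c (1.43) was well above those in replicates 1 and b (0.29 and 0.39). SPTLC2, a subunit of the first enzyme of sphingolipid synthesis, differed by 0.45 (SE 0.13), and ALKBH1, a nucleic acid demethylase, by 0.77 (SE 0.21).

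The genes just before the segment did not share this direction. SAMD15, whose annotated end lies 35.2 kb before VIPAS39, had a mean difference of 0.05 (SE 0.17). TMED8, a gene of the family that moves cargo between endoplasmic reticulum and Golgi, had -0.06 (SE 0.19). POMT2, which starts protein O-mannosylation, had -0.21 (SE 0.14). GSTZ1, an enzyme of tyrosine breakdown, was the exception, higher in the clone in all 3 pairs with a mean of 0.25 (SE 0.13). Between ZFP36L1, which ends 8.63 Mb before VIPAS39, and the segment, 68 tested coding genes had median differences of -0.13, -0.05 and -0.29 in replicates 1, b and c. The 218 coding genes before ZFP36L1 had medians of -0.06, 0.01 and 0.02.

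**Figure D1:**
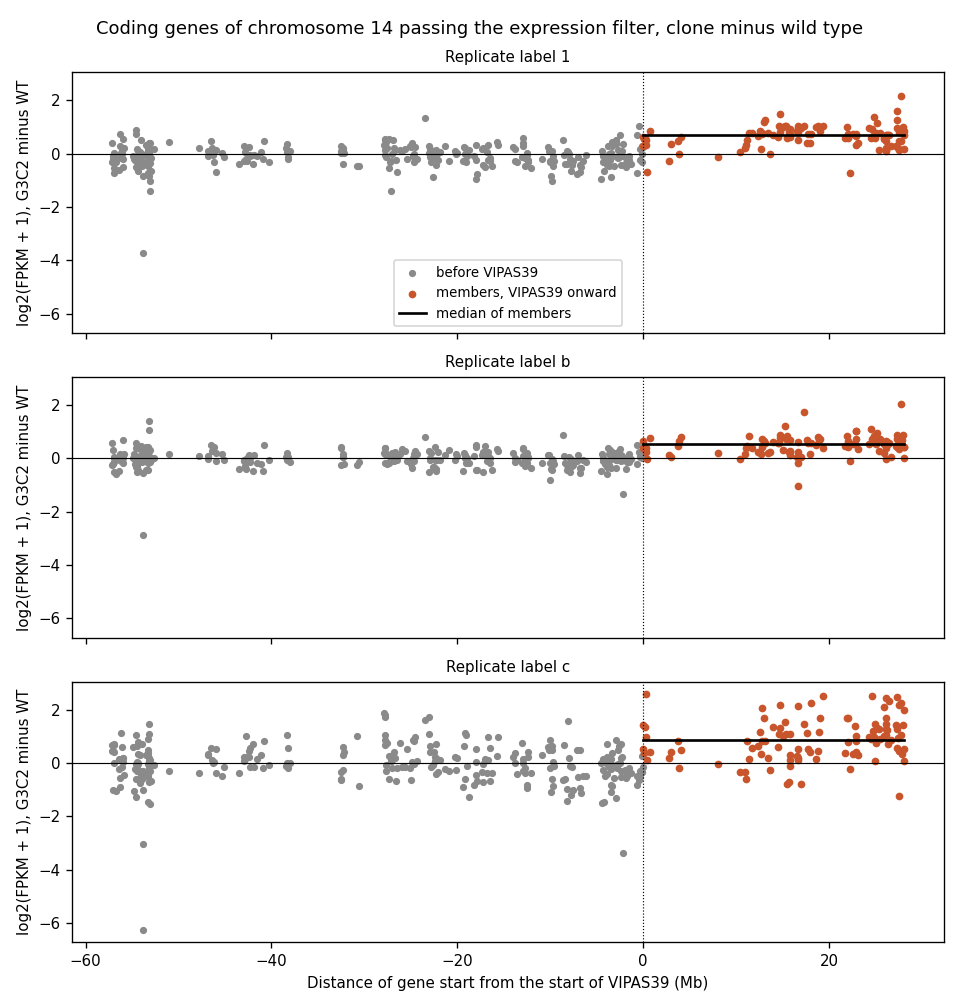
Differences between clone and wild type for coding genes of chromosome 14 that passed the expression filter, plotted by distance of the gene start from VIPAS39 in Mb, 1 panel per replicate label. Grey points lie before VIPAS39 and orange points are the 107 members, whose median (black line) was 0.69, 0.54 and 0.85 in replicates 1, b and c.

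Along the 28.1 Mb from VIPAS39 to the last member start, positive differences ran through most stretches that held members, but not through that from FLRT2 to PTPN21. The 13 members of the first 5 Mb, from VIPAS39 to SEL1L, had a median mean difference of 0.59. The next 5 Mb held 1 member, FLRT2, a cell-surface guidance protein, at 0.02. The members that follow it, GALC, SPATA7 and PTPN21, had -0.10, 0.02 and 0.04, with mixed directions between pairs. The 20 members from 10 to 15 Mb had a median of 0.60 and the 25 from 15 to 20 Mb one of 0.61. From 20 to 25 Mb the 18 members had a median of 0.82, and the last 30 members, from ANKRD9 to TMEM121, one of 0.72. Members up to KCNK13, 23 in all, had a median of 0.52 with 16 higher in all 3 pairs. From PSMC1 on, 84 members had a median of 0.76 with 74 higher in all 3 pairs. The border at PSMC1 was set after the values were seen. For comparison, the tested coding genes of chromosome 12 from 50 to 60 Mb (139 genes) had medians of 0.36, 0.27 and 0.43 in the 3 pairs, and those of chromosome 20 from 50 Mb on (79 genes) had 0.41, 0.38 and 0.59.

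Counted over the members, 90 of 107 (84.1%) were higher in the clone in all 3 pairs, beside a background of 18.3% of 11753 tested coding genes on other chromosomes. EML1 was the 1 member lower in all 3 pairs (background 18.7%), and 16 were mixed. Clone values lay above WT values without overlap within each table for 86 members (background 15.4%), and 40 members differed by at least 0.5 in every pair (background 1.2%). Past a limma adjusted p of 0.05 there was 1 member, NUDT14 (background 0.02% higher and 0.0467% in either direction among 15001 identifiers tested). That call was kept in 5 of 20 other settings and lost in the other 15, among them the replicate block, quantile normalization, no expression filter and the second table alone. Because the members were chosen on this contrast, nothing is read from these counts. The median difference was 0.69 in replicate 1, 0.54 in b and 0.85 in c, against -0.07, -0.02 and 0.10 on other chromosomes. Quartiles of the mean difference were 0.44 and 0.93, and it ranged from -0.35 for EML1 to 2.14 for NUDT14.

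On the linear scale, members with at least 5 FPKM in both libraries of a pair had a median clone-to-WT ratio of 1.69 (83 members) in replicate 1, 1.51 (43 members) in b and 2.76 (32 members) in c. Genes on other chromosomes under the same rule had median ratios of 0.959, 0.975 and 1.28. Divided by these, the members' ratios were 1.76, 1.55 and 2.15. The share of all coding FPKM that came from members was 0.616%, 0.382% and 0.270% in WT and 1.04%, 0.606% and 0.634% in the clone. The clone's share was the higher one in each pair, also without HSP90AA1, the most abundant member.

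The 3 pairs did not agree closely on which members differed most. Across the 107 members, Pearson's r between the differences was 0.53 for replicates 1 and b, 0.36 for 1 and c, and 0.32 for b and c, over genes that share libraries. Replicate c gave the largest of the 3 differences for 60 members (56.1%, beside 51.7% on other chromosomes) and the smallest for 30 (28.0%, beside 31.6%), shares near the background. Part of its spread was in the WT libraries: members were lower in WT replicate c than in WT replicate b by a median of 0.35 on the log2 scale (88 of 107 lower), whereas the clone's libraries differed by a median of 0.02. On other chromosomes the same medians were -0.08 and 0.06.

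Filtering shaped the list as well. With FPKM of at least 1 required in all 6 libraries, 78 of the 107 would remain. On WT libraries alone, 86 of the 107 met the filter, and the place of the others in the list leans on clone values. Among those others, 11 met it on clone libraries alone: NRXN3, SPATA7, EFCAB11, NRDE2, UBR7, IFI27L2, GSC, CLMN, MOK, ADSSL1 and CLBA1. The rest, such as DIO2 and KCNK13, needed 1 library of each genotype. The developmental transcription factor GSC was below 1 in all WT libraries (0.0845, 0.480 and 0.156) and at 1.2, 3.97 and 2.17 in the clone. ADSSL1, a muscle-type enzyme of AMP synthesis, was likewise below 1 in WT (0.171, 0.111 and 0.164) and at 2.59, 1.06 and 0.722 in the clone. A further 60 coding genes of the segment did not pass the filter, 16 of them listed at 0 in every library. Those 60 include 8 serpin genes next to SERPINA1, which reached at most 0.139 FPKM.

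NUDT14 had the largest difference of all members. It encodes a NUDIX hydrolase that cleaves UDP-glucose. Its FPKM was 2.17, 3.11 and 1.89 in WT and 13.2, 15.7 and 12.7 in the clone. Clone libraries were far above WT libraries in both tables, and the differences of 2.16, 2.02 and 2.24 were close to each other (mean 2.14, SE 0.18). Only LGMN, GSC and NUDT14 differed by at least 1 in all 3 pairs. The 250 bases before its RefSeq start are shown because its difference stood apart from its neighbours'. They hold 6 matches to GGGCGG, the core bound by SP-family factors, counted on both strands and marked in capitals, and 36 CpG dinucleotides at 80.8% GC (chr14:105181313-105181562, GRCh38.p14, minus strand, 5′ to 3′).
NUDT14 upstream: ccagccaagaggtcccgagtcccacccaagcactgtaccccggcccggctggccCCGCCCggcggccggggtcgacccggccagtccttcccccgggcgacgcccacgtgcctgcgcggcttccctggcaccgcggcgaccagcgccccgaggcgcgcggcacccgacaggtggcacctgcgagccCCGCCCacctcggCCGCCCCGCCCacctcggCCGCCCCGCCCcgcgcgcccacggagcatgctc

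Chaperone, ubiquitin and protein-turnover members were higher in the clone in all 3 pairs for 13 of 13, with a median mean difference of 0.85. Counts by role, here and below, stand beside 84.1% of all members and 18.3% of coding genes on other chromosomes. Because the members were chosen on this contrast, nothing about a role is read from them. HSP90AA1 (chr14:102080738-102139699, minus strand) had an FPKM of 1270.2, 190.6 and 91.3 in WT and 2406, 318.4 and 522.2 in the clone. Every pair was higher in the clone, but replicate c (2.5) exceeded replicates 1 and b (0.92 and 0.74), so the mean of 1.39 carried an SE of 0.38. LGMN, a lysosomal asparaginyl protease, was more even, at 63.4, 23.0 and 12.6 in WT and 131.1, 53.9 and 38.5 in the clone (mean 1.26, SE 0.27). PSMC1, an ATPase subunit of the proteasome, differed by 1.07 (SE 0.31), and SEL1L, the adaptor of an endoplasmic reticulum ubiquitin ligase, by 0.64 (SE 0.15). The deubiquitinase ATXN3, known from spinocerebellar ataxia, went from 14.1, 2.37 and 1.56 to 30.3, 4.07 and 4.43 (mean 0.91, SE 0.16). The smallest difference of the group was that of BTBD7, at 0.38 (SE 0.18). BTBD7 had 14.8 and 25.3 FPKM in the first table but only 0.143 to 0.497 in the second.

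A short stretch upstream of the inner RefSeq start of HSP90AA1 is shown because heat shock elements are the best known control sites of this gene. The sequence is chr14:102087105-102087132 (GRCh38.p14, minus strand, 5′ to 3′), with 60 bases between it and that start, inside the extent of the gene, where a longer GENCODE transcript has 5′ untranslated sequence. Capitals mark 2 matches to the element core TTCNNGAA. The same core was found in 7 of 159 RefSeq promoter windows of members (4.40%), in 5.16% of the windows of tested genes on other chromosomes and in 6.62% of all 35116 windows of 250 bases.
HSP90AA1 upstream: TTCCGGAAggttcgggaggcTTCTGGAA

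Of the 13 members in RNA processing, translation and RNA surveillance, 12 were higher in all 3 pairs, with a median of 0.77. PAPOLA, the canonical nuclear poly(A) polymerase, had an FPKM of 161, 11.8 and 6.70 in WT and 295, 20.4 and 23.6 in the clone. Each clone library exceeded its WT partner (mean 1.10, SE 0.23). CPSF2, a subunit of the factor that recognises the polyadenylation signal, went from 24.8, 3.97 and 2.61 to 44.0, 7.50 and 8.06 (mean 0.97, SE 0.17). DICER1, the nuclease that cuts microRNA precursors, went from 27.8, 4.25 and 2.97 to 36.9, 7.54 and 7.65 (mean 0.74, SE 0.18). EIF5, the GTPase activator of translation initiation, had differences of 0.53, 0.19 and 2.09, so replicate c set much of its mean of 0.94 (SE 0.36). SLIRP, a stabiliser of mitochondrial mRNAs, showed the same shape with 0.50, 0.40 and 2.61. SLIRP shares 43506 bases with SNW1, a splicing factor on the opposite strand, and no strand setting of the counting is given in the sources used here, so reads of the pair may be mixed. The 1 member of this group without a uniform direction was the RNA helicase DDX24 (0.96, -0.18 and 0.51). DDX24 had 49.1 and 96.6 FPKM in the first table but only 0.456 to 1.45 in the second.

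All 14 transcription and chromatin members were higher in all 3 pairs, with a median of 0.80. YY1, a zinc-finger factor that both activates and represses, stood at 51.5, 14 and 8.99 in WT and 84.0, 20.8 and 24.9 in the clone (mean 0.87, SE 0.20). SETD3, the actin histidine methyltransferase, went from 30.5, 8.20 and 5.83 to 61.7, 15.7 and 21.1 (mean 1.18, SE 0.20). RCOR1, the scaffold of the CoREST repressor complex, had narrow differences of 1.15, 0.96 and 1.29 (mean 1.14, SE 0.20). MTA1, a subunit of the NuRD remodelling complex, had 1.0, 0.88 and 1.42 (mean 1.10, SE 0.16). FOXN3, a forkhead repressor, differed by 0.58 (SE 0.15), and the general factors GTF2A1 and BRF1 by 0.59 (SE 0.15) and 0.71 (SE 0.16). CDCA4, a cell-cycle associated regulator, ranged widely between pairs, from 0.33 in b to 2.17 in c (mean 1.10, SE 0.34).

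Kinases, phosphatases and signalling proteins were higher in all 3 pairs for 14 of 17 members, with a median of 0.80. VRK1, a nuclear kinase of chromatin, had an FPKM of 34.9, 8.22 and 2.91 in WT and 73.5, 11.1 and 21.2 in the clone. The clone was higher without overlap in either table (mean 1.32, SE 0.38), with the widest gap in replicate c. PPP2R5C, a targeting subunit of protein phosphatase 2A, had 0.96, 0.54 and 0.96 (mean 0.82, SE 0.18), and PPP4R3A, a regulator of protein phosphatase 4, 0.71, 0.60 and 1.35 (mean 0.89, SE 0.19). CDC42BPB, a kinase that drives actomyosin contraction downstream of CDC42, was among the most even members at 0.77, 0.73 and 0.89 (mean 0.80, SE 0.17). SIVA1, a pro-apoptotic protein, differed by 1.28 (SE 0.37). The 3 members without a uniform direction were PTPN21, ITPK1 and MOAP1, each lower in the clone in replicate c (-0.59, -0.80 and -0.71). For MOAP1 this rested on low values, 0.745 FPKM in WT and 0.0699 in the clone.

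Of 16 cytoskeletal, motor, cilia and centrosome members, 13 were higher in all 3 pairs, near the share of 84.1% over all members. In this list 1 member was lower in all 3 pairs, and the median was 0.53. DYNC1H1, the heavy chain of cytoplasmic dynein, had 216, 6.07 and 5.14 in WT and 330, 14.1 and 10.6 in the clone (mean 0.87, SE 0.18). Its clone values were above WT in both tables, although its level in the second table was far below that in the first. INF2, a formin that builds actin filaments, differed by 0.72 (SE 0.24) and CEP170B by 0.53 (SE 0.18). EML1, a microtubule-binding protein 22.3 Mb from the start of VIPAS39, ran the other way, at 9.48, 1.17 and 0.955 in WT and 5.36, 1.02 and 0.692 in the clone (mean -0.35, SE 0.18). Its difference was largest in replicate 1 (-0.72) and small in b and c (-0.11 and -0.21). AHNAK2, a very large scaffold protein, was mixed at 0.13, 0.58 and -1.22.

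Of 7 members in membrane traffic and the Golgi, 5 were higher in all 3 pairs, with a median of 0.59. The golgin GOLGA5 went from 19.5, 8.49 and 6.07 to 40.9, 14.5 and 14.1 (mean 0.95, SE 0.16). TRIP11, another golgin, had nearly the same difference in each pair, at 0.62, 0.59 and 0.59 (mean 0.60, SE 0.16). PACS2, a sorting adaptor, had 0.83, 0.69 and 0.32. STON2 and FLRT2 were mixed, with means of 0.15 and 0.02.

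Among 12 metabolic and mitochondrial members, 8 were higher in all 3 pairs, with a median of 0.72. NDUFB1, a subunit of respiratory complex I, stood at 29.2, 11.2 and 4.42 in WT and 83.1, 21.4 and 23.3 in the clone (mean 1.5, SE 0.30). It was second to NUDT14 among members with a mean FPKM of at least 5. GLRX5, needed for iron-sulfur cluster assembly, differed by 1.2 (SE 0.35) and ATP5MPL, a small ATP synthase subunit, by 1.19 (SE 0.36), both with differences above 2 in replicate c. CKB, the brain-type creatine kinase, had 97.9, 56.6 and 21.2 in WT and 104, 55.0 and 70.3 in the clone. Its differences were 0.08, -0.04 and 1.68, so its mean of 0.57 (SE 0.39) rested on replicate c alone. The lysosomal galactosidase GALC (0.06, -0.03 and -0.34), DIO2 (-0.26, 0.11 and 0.19) and DGLUCY (-0.01, 0.24 and -0.25) were mixed as well.

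The DNA repair list had 3 members, all higher in the 3 pairs: VRK1 (above), CINP and TDP1. TDP1, which frees trapped topoisomerase I from DNA, went from 10.5, 2.79 and 1.93 to 20, 3.43 and 5.54 (mean 0.75, SE 0.20). CINP differed by 0.87 (SE 0.21). Secreted, receptor and membrane proteins had the lowest median, 0.22, with 5 of 9 higher in all 3 pairs. By pair their medians were 0.69, 0.22 and 0.20. TMEM251, IFI27L1 and IFI27L2 of this list lie in the run of very low second-table values described below. KCNK13, also listed here, had a mean FPKM of 0.84. On this scale the change of such low values is understated, but IFI27L2 had the largest mean difference of the list, at 1.27. Whether low values bear on the median of the list was not tested. SERPINA1, the antitrypsin gene, had 18.7, 6.81 and 5.64 in WT and 37.3, 7.09 and 2.88 in the clone. It was higher in replicate 1, nearly level in b and lower in c (0.96, 0.05 and -0.77). NRXN3, a synaptic adhesion protein, had 0.84, 0.78 and 0.41. Of the 7 members in none of the lists, 6 were higher in all 3 pairs, the exception being ADCK1 (-0.69, -0.02 and 0.11).

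**Figure D2:**
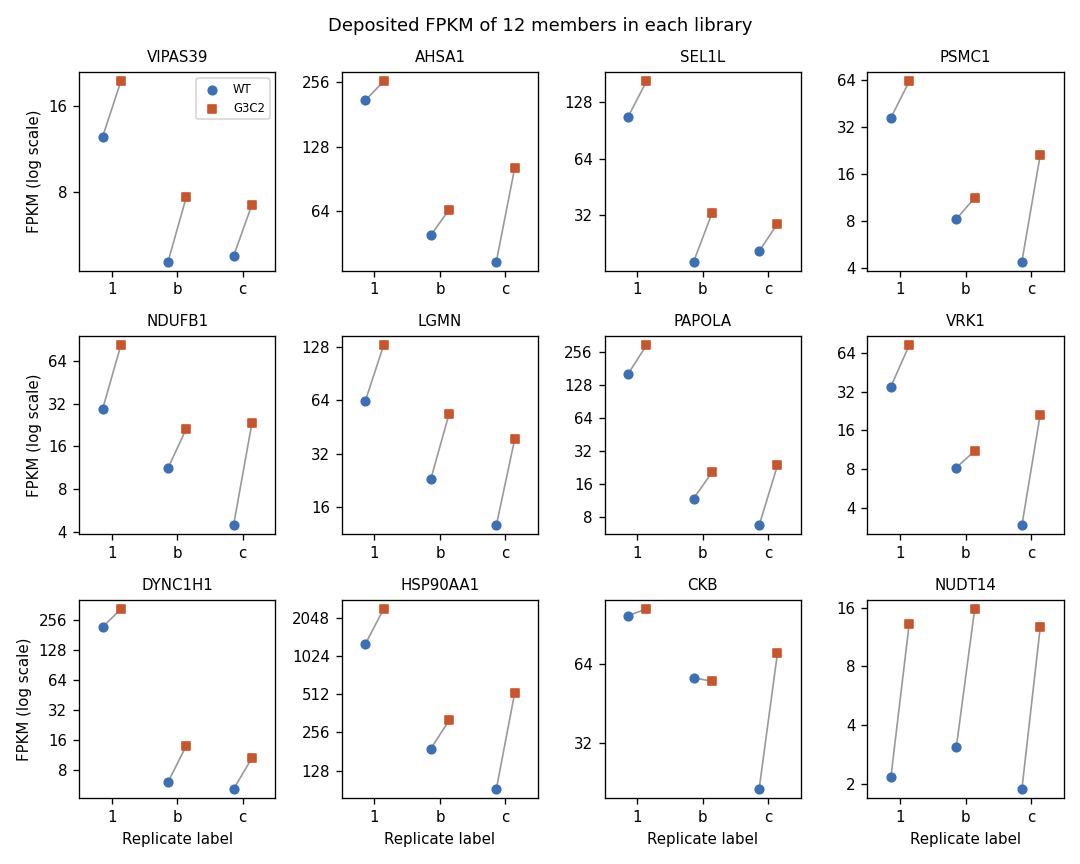
FPKM of 12 members on a log scale for each replicate label, with wild type as blue circles and the clone as orange squares, joined within a label. NUDT14 was higher by a similar amount in all 3 labels, while HSP90AA1 and VRK1 had their widest gap in label c and CKB was nearly level in labels 1 and b.

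**Figure D3:**
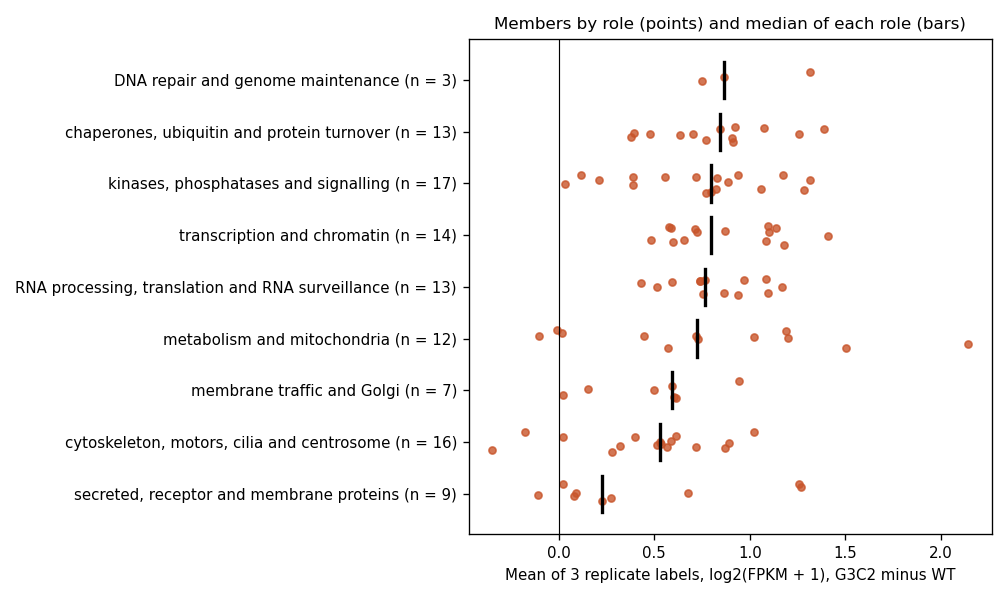
Mean of the 3 differences between clone and wild type for each member, grouped by role (vertical jitter only spreads the points), with a bar at each role's median. The medians ran from 0.22 for secreted, receptor and membrane proteins to 0.87 for DNA repair. Some members of the former list had values near 0 in the second table, where the scale understates change. Whether this bears on the median of that list was not tested.

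A run of 10 neighbouring members, from MOAP1 to PPP4R4 (chr14:93182196-94279735, 1.10 Mb), had very low values in the second table alone. In the first table these genes had between 2.10 and 96.6 FPKM. In the second they had medians between 0.068 and 1.12, a highest value of 4.21 and between 0 and 372 recovered reads per library. UBR7, which carries a UBR-box domain of ubiquitin ligases, shows the gap: 32.5 and 63.3 FPKM in the first table against 0.173, 0.0959, 0.909 and 1.33 in WT b, WT c, clone b and clone c. Genotype did not mark the gap, since WT and clone were low together. Both first-table values at 2 FPKM or more, with a second-table median under 1.2 and over 10 times below the first-table mean, were found for 11 members (these 10 and CLMN) and for 427 of 11753 coding genes on other chromosomes (3.63%). Their median differences were 0.81, 0.24 and 0.24 in replicates 1, b and c. Without the run, the other 97 members had medians of 0.69, 0.55 and 0.94, and 84 of them were higher in all 3 pairs. What lowered the values in 1 table was not tested.

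**Figure D4:**
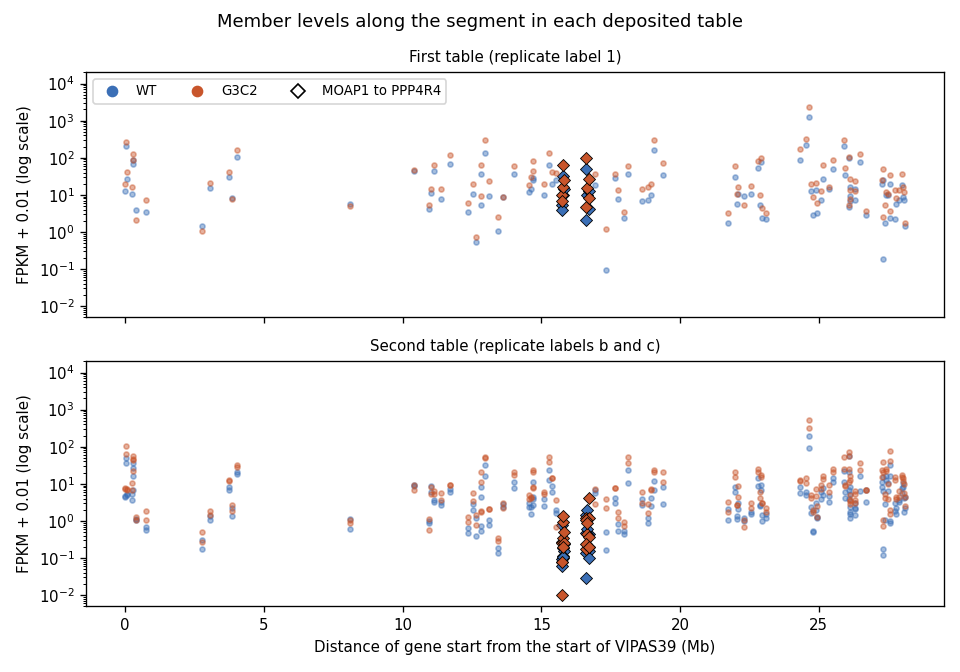
FPKM of the 107 members (0.01 added, log scale) by distance from the start of VIPAS39, with the first table above and the second below, wild type in blue and the clone in orange. Diamonds mark MOAP1 to PPP4R4, which lay between 2.10 and 96.6 in the first table and at or under 4.21 in the second.

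Values of the members' partners were not used in choosing the segment, but those of the members were, so the choice itself favoured members above partners. The partner lists were made with earlier results of these data known. For 37 members in 36 complexes or gene families, 149 partner and paralog genes located outside the segment were listed by their known biology, and 145 were tested. With limma, 0 of the 145 passed an adjusted p of 0.05 in either direction (background 0.0467%). Higher in all 3 pairs were 39 (26.9%, beside 18.3%) and lower in all 3 pairs 18, beside 18.7%. At an unadjusted p under 0.05 there were 16 (11 higher and 5 lower, 11% of the partners), beside a background of 13.6% of all identifiers tested. Their median difference was 0.12, against 0.82 for the 37 members and 0.01 for all identifiers tested. By pair, the partners' medians were -0.06, -0.02 and 0.44, so in replicates 1 and b they lay near 0 and in replicate c they were higher. In 35 of 36 units the member's difference exceeded the median of its partners, a count that the choice of the members favours. TFIIA was the exception, where GTF2A1 at 0.59 lay below GTF2A2 at 0.73 (SE 0.31, limma adjusted p = 0.381).

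Values of single units are set out next, where the choice of the members favours them in the same way. In the proteasome ATPase ring, PSMC1 went from 36.8, 8.23 and 4.38 to 63.0, 11.3 and 21.2. Its differences by pair were 0.76, 0.41 and 2.04, beside partner medians of -0.08, -0.21 and 0.74, so both were highest in replicate c. The other 5 ring subunits, PSMC2 to PSMC6, of which PSMC6 also lies on chromosome 14 before the segment, had differences between -0.07 and 0.26. In complex I, NDUFB1 had 1.5 and its 10 NDUFB partners between 0.19 and 0.70. The 8 tested dynein partners ran from -0.49 to 0.67 beside 0.87 for DYNC1H1. The kinases VRK2 and VRK3 had -0.22 and -0.17 beside 1.32 for VRK1. For the MRCK family, CDC42BPG fell short of the threshold with the lowest adjusted p of all partners: 5.41, 5.89 and 5.69 in WT and 3.59, 2.0 and 1.58 in the clone (-1.02, SE 0.20, limma adjusted p = 0.154), with clone values below WT in both tables.

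**Figure D5:**
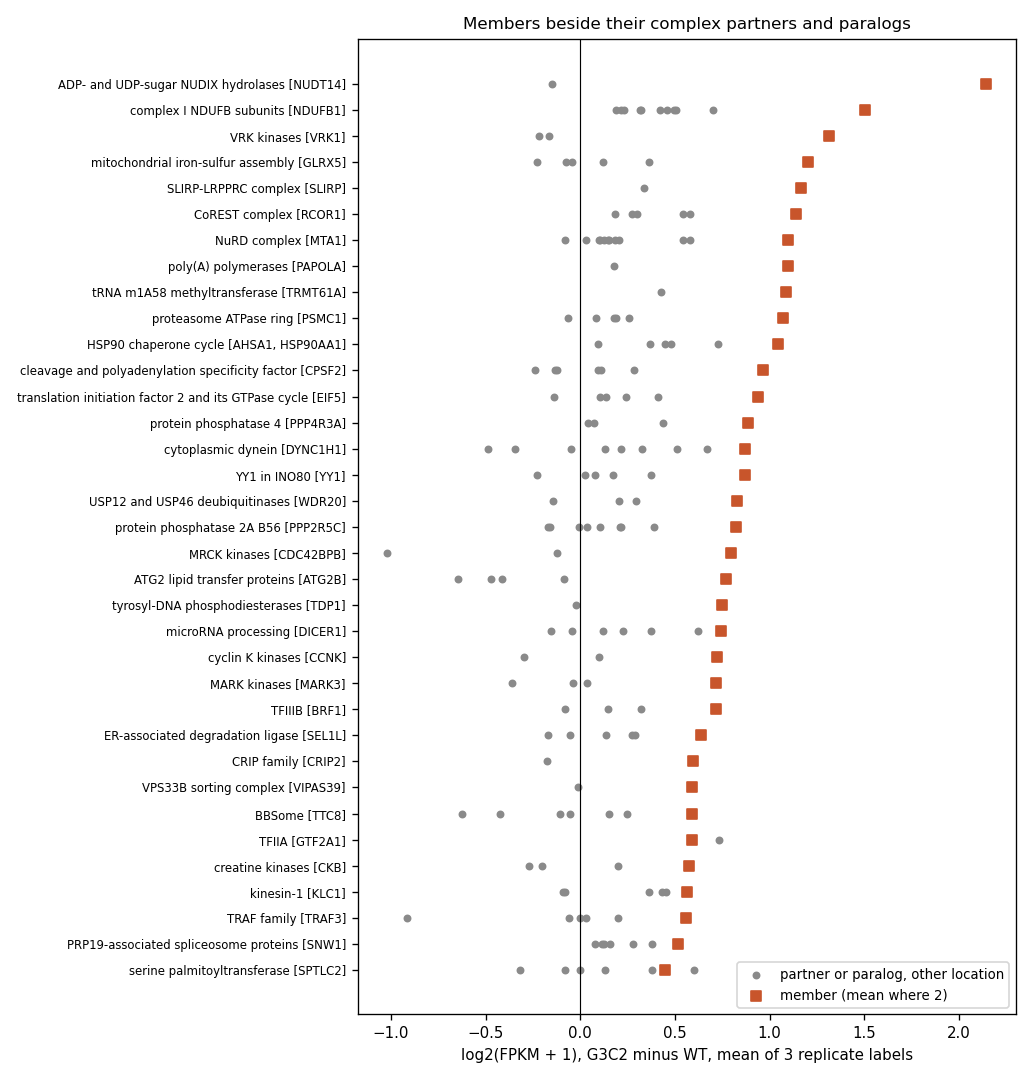
Differences between clone and wild type for members (orange squares) and their partners and paralogs encoded elsewhere (grey points), 1 line per complex or family, sorted by the member's difference. The partners drawn lay between -1.02 and 0.73, and in TFIIA alone the member lay below the partner median.

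The share of a member in the summed FPKM of close paralogs was set out for cytosolic HSP90. HSP90AA1 gave 37.5%, 13.6% and 10.3% of the sum with HSP90AB1 in WT and 52.9%, 19.9% and 20.6% in the clone. HSP90AB1, the constitutive form, had 2117, 1213 and 799 FPKM in WT and 2146, 1279.9 and 2015 in the clone (0.48, SE 0.35, limma adjusted p = 0.588), so it was level in replicates 1 and b and higher in c. HSP90AA1 has near-identical pseudogene copies, and the handling of reads shared with them is not given in the sources used here.

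Non-coding genes of the segment, which the rule did not select, were tallied in the same way. These are long non-coding RNAs, small RNAs and pseudogenes, without immunoglobulin and T cell receptor segments. Of 32 that passed the expression filter, 18 were higher in all 3 pairs and 0 were lower, with a median of 0.49. Among 2724 such genes elsewhere 13.3% were higher in all 3 pairs, with a median of -0.06. Of those higher in the segment, AL136040.1, AL163051.1, AL138976.2, LINC02298, RPS20P33 and AC246787.1 were below 1 FPKM in every WT library. They passed the filter through clone libraries alone. Because the segment itself was chosen on this contrast, nothing is read from this tally. The lincRNA AL133467.2 had 1.31, 1.04 and 1.38 FPKM in WT and 5.01, 5.83 and 6.23 in the clone (mean 1.58). Clone and WT values did not overlap. Its neighbour AL133467.4 differed by 1.23 and LINC00226 by 1.08. These 3 were named after their values were seen, and no strand setting separates antisense genes from the coding genes they overlap.

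ZFP36L1 binds AU-rich elements, so the members' 3′ untranslated regions were searched for the core TATTTAT in the longest annotated transcript end. It was present in 42 of 107 members (39.3%) and in 35.9% of coding genes on other chromosomes. Median untranslated lengths were 1718 and 1402 bases. Members with the heptamer had a median difference of 0.66 and those without it 0.72, and the quartile ranges of both sets overlapped (0.49 to 0.90 and 0.40 to 1.02). In replicates 1, b and c the medians were 0.71, 0.52 and 0.80 with it and 0.69, 0.54 and 0.97 without it. Higher in all 3 pairs were 38 of 42 members with it and 52 of 65 without it. On other chromosomes these were 1021 of 4207 and 1126 of 7503. Nothing is read from the member values, since members were chosen on this contrast. The most copies were in RPS6KA5 (18), FLRT2 (15) and ANKRD9 (7), whose untranslated regions of 24212, 30929 and 5176 bases were far longer than the median. The differences of these 3 genes were 0.39, 0.02 and 0.69. One site is shown for each of these because they carry the element this protein is known to bind. The sites are in the GENCODE 29 transcripts of GRCh38, in transcript direction 5′ to 3′, with the heptamer in capitals, whose first base is base 1454, 4747 and 3695 after the stop codon.
RPS6KA5: tttggacatgaTATTTATttattcctttc
FLRT2: taatgtcattgTATTTATcctatcagaat
ANKRD9: taaaagtaattTATTTATttatgtattta

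Promoter windows of the members were not set apart by the other motifs searched, each on both strands in the 250 bases before RefSeq starts. RefSeq windows were found for 98 of the 107 members (159 windows). TATAAA was in 4.40% of them, in 5.65% of the windows of tested genes on other chromosomes and in 10.7% of all windows. CCAAT was in 30.2%, 32.7% and 32.0% of the same sets, and GCCATNTT, a form of the YY1 site, in 5.03%, 4.10% and 3.86%. The SP core GGGCGG was in 65.4% of member windows, in 42.6% of all windows and in 63.8% of the windows of tested genes on other chromosomes. Median GC content was 66.8% for members, 64.8% for tested genes on other chromosomes and 58% for all. Member genes were somewhat longer, with a median of 7199 exonic bases against 5159 on other chromosomes, and had lower WT levels, with median FPKM of 10.7 against 19.2 in the first table. Annotated extents overlapped in 18 pairs of members, among them KLC1 and APOPT1, which share 44562 bases on the same strand, so values of such pairs are uncertain.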

How the data were processed

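Gene expression was measured by poly(A) RNA sequencing in 6 U2OS libraries, 3 WT and 3 of the clone G3C2. The 2 tables deposited by the authors hold FPKM values, as the headers of these files state. CASAVA, HISAT2 and GRCh38.p12 are named in the submitters' processing notes. Counting and strand settings are not given in the sources used here. Groups and replicate labels came from the sample titles. Nothing ties a label to a culture, so p-values reflect how far the libraries spread, which may be partly technical.

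The members, role lists and partner lists were chosen with earlier results of these data known. Differences were log2(FPKM + 1), clone minus WT, within a replicate label. The fit was limma 3.58.1 in R 4.3.3 with terms for genotype and table, a trended prior variance and p-values adjusted by Benjamini-Hochberg (threshold 0.05) over the 15001 identifiers that reached an FPKM of 1 in 2 or more libraries, of which 14988 are GENCODE 29 genes. It was tested on simulated data before use. In the second table, 97.3% to 97.4% of values were whole reads within 0.02 reads, and the first gave 33.9% to 35.6%. Same-labelled libraries deviated together (r = 0.93, 0.80 and 0.60 for 1, b and c), so by the rule on pairing they count as paired, although the separate tables can produce this by themselves. For b and c within their own table, r was -0.17, so no pairing showed there. The main fit, which gave the SE and adjusted p, had no term for the label. A replicate block was run as an alternative.

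Genes named by rule were the tested coding genes nearest VIPAS39 on each side (4 per side), the 8 largest, 8 smallest and 8 most abundant members (the first 2 sets at a mean FPKM of at least 5), up to 4 of the most abundant members per role, and members with listed partners. Other genes were named after their values were seen. Some results are not reported here. Promoters were taken from RefSeq and 3′ ends from GENCODE 29. Alternatives covered the pseudocount, scaling, filters, pairing, the table term and libraries left out. Python 3.11.15 with pandas 2.3.3 was used.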

Additional observations from a re-analysis of the deposited data

How the results depend on the processing

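The members' median difference of 0.71 stayed between 0.59 and 0.86 under each alternative but the one without an expression filter, where 149 genes gave 0.52. Leaving out a replicate label gave 0.59 to 0.76. The count higher in all pairs run was 90 of 107, 87 with the pairing of b and c crossed, 91 to 97 with a label left out, and 97 of 149 without a filter. Chosen after seeing the data, 73 members without overlapping neighbours gave 0.68 and 60 higher. The 52 named members with 1 direction in all 3 pairs kept their sign in 1033 values over 20 settings, but leaving out a label cannot turn such a member. Of the 8 mixed named members, 6 changed sign in 24 of 156 values, all with a library, label or the first table left out. AHNAK2 went from -0.17 to 0.35 without replicate c and to 0.20 without G3C2 replicate c. Of all 1189 values, 19 moved by more than the spread between pairs.

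Over all genes limma called 3 higher and 4 lower. With the replicate block it called 0 and 1. It called 0 and 0 with quantile normalization, with FPKM of at least 1 in all libraries, without a filter, without the table term, and with the second table alone with or without the replicate block. With a mean FPKM of at least 5 it called 2 and 1. Leaving out 1 library or label gave between 0 and 448 higher and between 0 and 457 lower, with both maxima reached without replicate c. Partners past the threshold numbered 0 under every setting run, the replicate block included, except without replicate c (range 0 to 3 over omissions), where NUDT5 (-0.53, adjusted p = 0.0385), DYNLL2 (-0.51) and VRK2 (-0.48) passed. Among the partners followed, NUDT5 turned to 0.0094 with the second table alone, with or without its replicate block, and was between -0.53 and 0.067 with a library or label left out. The cause was not tested.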
